A study of Mus musculus with 16 samples.

Results

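Angpt1, Angpt2, Tek, Tie1 and Ptprb are the 5 genes described here. They encode the angiopoietin ligands 1 and 2, the receptor Tie2 (Tek), its relative Tie1, and the endothelial tyrosine phosphatase VE-PTP (Ptprb). They were chosen by name, with earlier results of these data known. All 5 were found among 38926 gene names of the regional and the Lats2 libraries. By Ensembl identifier, all 5 were also among 21603 identifiers of the Yap1/Taz libraries.

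The libraries were made from sorted bone endothelial cells (ECs) of C57BL/6 mice. In the regional comparison, 3 libraries came from wild-type metaphyseal ECs (mpECs) and 3 from wild-type ECs of the diaphyseal marrow (bmECs), which the study's methods describe as sorted from animals 3 weeks old with a Cdh5-driven fluorescent reporter. In the second comparison, 3 control and 3 mutant libraries came from postnatal day 21 animals, all homozygous for loxP-flanked Yap1 and Wwtr1. The 3 libraries labelled Yap1/Taz ECKO carried the Cdh5-CreERT2 transgene and the 3 controls did not. In the third comparison, all animals were homozygous for loxP-flanked Lats2, and 2 Lats2 cKO libraries, likewise from 3-week-old animals per the methods, had Cdh5-CreERT2 whereas 2 control libraries lacked it. Cdh5-CreERT2 is active in ECs after tamoxifen, and the controls were Cre-negative littermates. The labels do not say whether a library is 1 animal or a pool, so the p-values below measure the spread between libraries.

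Angiopoietin-1 activates Tie2 and keeps vessels quiescent. Angiopoietin-2 is stored and released by ECs themselves and, depending on context, blocks or weakly activates the same receptor. Tie1 binds neither ligand by itself but pairs with Tie2 and shapes its signal, and VE-PTP removes phosphate from Tie2. In marrow, Tek is also known from blood stem cells, and Angpt1 from stem and progenitor cells, megakaryocytes and Lepr+ stromal cells.

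On GRCm38, Tek lies on the plus strand at chr4:94739289-94874976 with 23 merged exons, and Tie1 on the minus strand of the same chromosome at chr4:118471191-118490061 with 22. Ptprb is at chr10:116275523-116389535 (plus strand), Angpt1 at chr15:42424723-42676977 (minus) and Angpt2 at chr8:18690263-18741562 (minus). The exons of Angpt1 overlap Gm17473 on the other strand over 14.2% of their bases. The deposited values of Angpt1 gave whole reads at a length of 4256 bases, against 5205 exon bases in GENCODE M21. Whether this stretch was counted is thus not known. Whether counting used strand is not stated either, so any reads of this stretch cannot be told apart. No exon base of the other 4 genes is shared with another gene in GENCODE M21.

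The promoter set used had no entry for Angpt1, Angpt2 or Ptprb, so theirs were not searched. Tek passed the test in opposite directions in 2 comparisons, and its proximal promoter is shown. The 250 bases before its RefSeq start (GRCm38.p6, chr4:94739039-94739288, plus strand) read as follows, with motif matches to be set in capitals.
Tek: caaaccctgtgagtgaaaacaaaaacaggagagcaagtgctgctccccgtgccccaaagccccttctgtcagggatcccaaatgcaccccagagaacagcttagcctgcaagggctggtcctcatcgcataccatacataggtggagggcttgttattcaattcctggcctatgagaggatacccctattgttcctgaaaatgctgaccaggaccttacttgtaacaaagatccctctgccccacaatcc
There are no capitals in it, because none of 5 short motifs was found on either strand. These were CATTCC (TEAD), TGTTTAC (FOX), ACGTG (HRE), TGANTCA (AP-1) and CCGGAA (ETS). The same window before the RefSeq start of Tie1 held none of them either, and most of it lies inside the gene as GENCODE places it above. Of 32851 RefSeq promoters searched over 250 bases, 12.6% held the TEAD letters, 3.17% the FOX letters, 16.6% the HRE letters, 6.75% the AP-1 letters and 12.0% the ETS letters. The GC content was 51.2% for Tek and 60.4% for Tie1, against a median of 52.4% over all promoters. A match of this kind describes letters and not binding, and its absence in 250 bases says nothing about sites elsewhere.

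Expression is given in FPKM, reads per kilobase of gene scaled to the size of the library, as deposited. Reads were estimated from the steps between low values, which came out whole for the 5 genes but not for all genes, and they numbered about 11122416 to 14756143 in the regional libraries, 4889944 to 7162964 in the Yap1/Taz libraries and 4732693 to 7074016 in the Lats2 libraries. All 8 endothelial markers examined (Cdh5, Pecam1, Erg, Cldn5, Egfl7, Eng, Esam and Kdr) were present in every table. Their summed level was between 1431 and 2015 FPKM in the regional libraries and between 2429 and 2793 FPKM in the Lats2 libraries, but only between 530.5 and 783.0 FPKM in the Yap1/Taz libraries. Stem and progenitor markers (Kit, Flt3, Hlf, Mecom, Myb, Gata2 and Cd48) summed to 332.1 to 374.7 FPKM in the Yap1/Taz libraries and to at most 67.2 FPKM in any other library. The 3 tables were normalized separately, so levels are set across them only as a description.

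The targeted genes were examined first. In the Yap1/Taz comparison, Wwtr1, which encodes Taz, was at 10.01, 9.88 and 10.3 FPKM in the controls and at 15.3, 19.6 and 19.5 FPKM in the libraries labelled ECKO, and thus higher, not lower, in the latter (log2 fold change 0.78, SE 0.12, adjusted p = 0.0272 in limma, and 0.00749 to 0.180 over the alternatives). That call was lost without control replicate 2 (adjusted p = 0.0752) or 3 (0.0715) and without the library labelled ECKO replicate 2 (0.180) or 3 (0.144), and also with no filter (0.0679) and no mean-variance trend (0.0570). Yap1 was at 1.07, 1.62 and 0.995 FPKM in controls and 1.43, 1.03 and 0.989 FPKM in the libraries labelled ECKO (adjusted p = 0.934). The Wwtr1 values go against the label, and the Yap1 values show no detectable difference, with a log2 difference of -0.04 that was -0.41 after centring on the endothelial markers (adjusted p = 0.105). A gene-level value also sums over all exons, so it cannot show the loss of single exons. In the Lats2 comparison, Lats2 was at 23.4 and 24.0 FPKM in controls and at 19.2 and 19.2 FPKM in cKO libraries, a log2 difference of -0.29 (SE 0.11, adjusted p = 0.125). In GENCODE M21, 42.4% of the Lats2 exon bases are shared with Gm49361 on the same strand. That share is of 6971 bases, whereas the deposited Lats2 values gave whole reads at a length of 7303 bases. The share among the bases counted is thus not known.

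Levels of the 5 genes followed different orders in the 3 tables. In mpECs, Tek was the highest with 162.3 ± 21.6 FPKM (SD, n = 3), followed by Tie1 with 48.4 ± 8.17 FPKM and Ptprb with 41.0 ± 7.44 FPKM, whose ranges overlapped. In bmECs the order of Tie1 and Ptprb was turned, with Ptprb at 47.2 ± 3.46 FPKM and Tie1 at 29.3 ± 3.73 FPKM and no overlap. Angpt2 came next in both regions, with 9.33 ± 3.13 FPKM for mpECs and 9.84 ± 3.71 FPKM for bmECs. Angpt1 was the lowest in both, at 1.26 ± 0.646 and 1.26 ± 0.337 FPKM.

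In the Yap1/Taz libraries the ligands stood the other way round. Angpt1 reached 44.7 ± 4.31 FPKM (SD, n = 3) in controls, a level overlapping that of Tie1 at 52.7 ± 4.98 FPKM, which in turn overlapped Tek at 55.1 ± 3.36 FPKM. Ptprb was at 29.4 ± 0.639 FPKM, and Angpt2 at 0.236 ± 0.208 FPKM was the lowest. In the Lats2 controls Tie1 was the highest at 295.8 ± 5.83 FPKM (SD, n = 2), above Tek at 214.2 ± 1.08 FPKM, Ptprb at 69.0 ± 9.23 FPKM, Angpt2 at 8.11 ± 0.0661 FPKM and Angpt1 at 0.497 ± 0.302 FPKM, and none of these neighbors overlapped. In Lats2 cKO libraries Angpt2 was on top with 325.2 ± 216.5 FPKM, a range that overlapped that of Tie1 at 298.4 ± 37.4 FPKM, and Tek at 86.0 ± 29.4 FPKM overlapped Ptprb at 75.0 ± 4.68 FPKM.

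**Figure D1:**
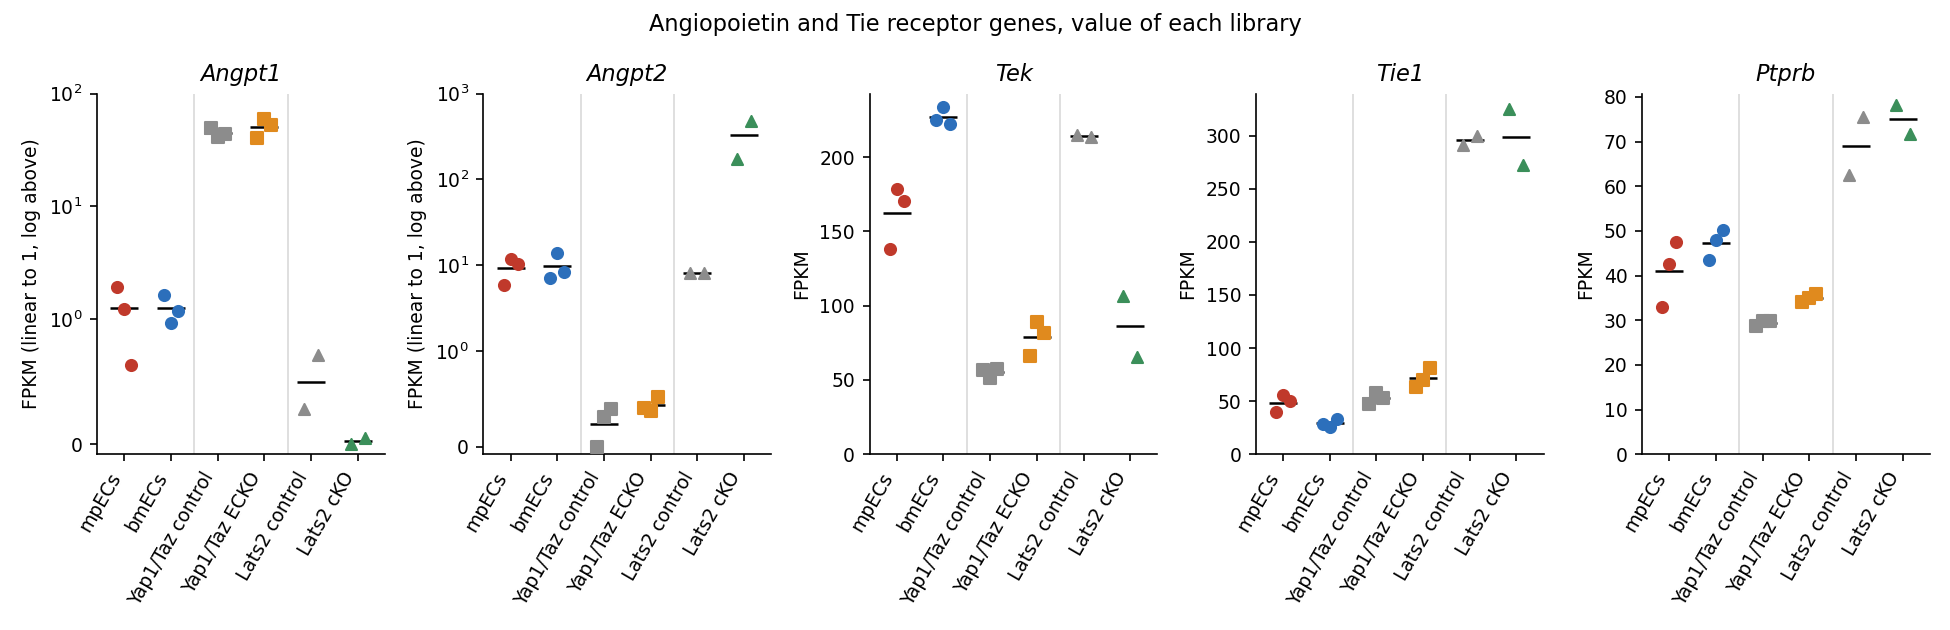
FPKM of each of the 16 libraries (points) and the group mean (black lines) for the 5 genes. The axes of Angpt1 and Angpt2 are linear up to 1 FPKM and logarithmic above it. Angpt1 is between 40.4 and 58.8 FPKM in the Yap1/Taz libraries and at or under 1.92 FPKM elsewhere. Angpt2 is at or under 0.525 FPKM in the Yap1/Taz libraries and at 172.0 and 478.3 FPKM in the Lats2 cKO libraries.

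The regional comparison asked how ECs of the metaphysis and of the marrow cavity differ. The receptors moved in opposite directions, with Tek higher and Tie1 lower in bmECs, whereas no difference was detected for either ligand or for Ptprb. Of the 5 genes tested, these 2 passed an adjusted p-value of 0.05, against 23.5% of all 11422 genes tested. Tek was at 137.8, 178.8 and 170.2 FPKM in mpECs and at 225.1, 233.6 and 222.1 FPKM in bmECs. Each bmEC library was above each mpEC library, and mpEC replicate 1 was the lowest. On the log2 scale the difference was 0.49 (SE 0.11, adjusted p = 0.0137), a ratio of means of 1.40. The summed endothelial markers were also higher in bmECs (1902 to 2015 FPKM) than in mpECs (1431 to 1789 FPKM). Of these 8 markers 3 passed as higher and 1 as lower, with a median log2 fold change of 0.25. Their part in the Tek difference was not tested. The call for Tek did not hold under each scaling. It was lost after quantile normalization (0.37, adjusted p = 0.0819), when libraries were set to an equal sum of FPKM (0.34, adjusted p = 0.109), after centring on the endothelial markers (0.33, adjusted p = 0.0958), in limma-voom on recovered reads (0.30, adjusted p = 0.0711) and without bmEC replicate 2 (0.47, adjusted p = 0.0519).

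Tie1 was at 39.5, 55.5 and 50.3 FPKM in mpECs and at 28.4, 26.0 and 33.3 FPKM in bmECs. Again the groups did not overlap, here with all mpEC libraries above all bmEC libraries. On the log2 scale the difference was -0.70 (SE 0.14, adjusted p = 0.0099998), and it had an adjusted p under 0.05 in all 15 alternative fits, from 0.00186 to 0.0415. Behind these values stood 1150 to 2722 reads per library for Tie1 and 7789 to 12317 for Tek. Groups that do not overlap in either direction were found for 2 of the 5 genes and for 41.3% of all genes tested.

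Ptprb was at 33.0, 42.6 and 47.6 FPKM in mpECs and at 43.4, 48.0 and 50.2 FPKM in bmECs, with overlapping groups. Its log2 fold change of 0.21 had a 95% interval from -0.10 to 0.53 (adjusted p = 0.306 in limma). Angpt2 was at 5.83, 11.9 and 10.3 FPKM in mpECs and at 7.11, 14.1 and 8.33 FPKM in bmECs. The spread within each region exceeded the difference between them (0.07, interval from -0.60 to 0.73, adjusted p = 0.894). Angpt1 was at 1.92, 1.22 and 0.629 FPKM in mpECs and at 1.63, 0.969 and 1.18 FPKM in bmECs, from 26 to 101 reads. Its difference was 0.03 (interval from -0.50 to 0.56, adjusted p = 0.944). The sign of both ligand differences turned with the scaling and with the library left out.

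Genes listed as markers of other cell types were detected in both regions, and bulk values cannot show which cells they came from. The pan-leukocyte and erythroid markers had the largest sums, 17652.6 to 32900.4 FPKM in mpECs and 27403.5 to 37712.1 FPKM in bmECs. Of 6 tested 0 passed, and Hbb-bs was the most abundant, with a mean of 17123.9 FPKM. Osteoblast markers (Bglap, Col1a1, Ibsp, Alpl, Sp7, Runx2 and Dmp1) summed to 121.7 to 545.9 FPKM in mpECs and to 41.2 to 52.5 FPKM in bmECs, and 3 of the 5 tested fell. Summed megakaryocyte markers ranged from 78.4 to 334.6 FPKM in mpECs and from 79.8 to 478.4 FPKM in bmECs, and none of 6 tested passed. Among stromal markers, Lepr rose from 2.95 to 13.3 FPKM and Kitl fell from 32.1 to 10.6 FPKM, and the sums overlapped (71.4 to 89.5 and 35.3 to 84.4 FPKM). Of 5 stem and progenitor markers tested, 2 were lower in bmECs, Kit (from 7.32 to 4.49 FPKM) and Mecom (from 4.496 to 0.977 FPKM), with sums of 39.3 to 52.3 and 29.4 to 35.9 FPKM. Of 5 genes of the macrophage list tested, Mrc1 was higher (from 98.8 to 331.0 FPKM) and Lyz2 lower (from 1380.2 to 763.6 FPKM). The median log2 fold change of that list was -0.46. The part of these cells in the values of the 5 genes was not tested, and in bulk libraries fewer cells of a type and less RNA per cell cannot be told apart.

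The second comparison was designed to ask what loss of Yap1 and Taz does to bone ECs, but the levels of the targeted genes do not show that loss. Tek, Tie1 and Ptprb were each higher in every library labelled Yap1/Taz ECKO than in every control, but none passed the test, while Angpt1 did not separate and Angpt2 was barely detected. Of the 4 genes tested, 0 passed an adjusted p-value of 0.05 in limma, against 1.31% of all 11320 genes tested, and 3 had an unadjusted p under 0.05, as had 2023 of all genes tested. In limma-voom on recovered reads 1 passed, namely Tek. Groups without overlap were found for 3 of these 4 genes and for 23.6% of all genes tested. Since Wwtr1 goes against the label, the direction is that between labels only.

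Tek was at 57.0, 51.2 and 57.0 FPKM in controls and at 66.1, 88.7 and 81.4 FPKM in the libraries labelled ECKO, a log2 difference of 0.50 (SE 0.12, adjusted p = 0.0713). It passed in limma-voom (0.46, adjusted p = 0.0351) and without the library labelled ECKO replicate 1, the lowest of its group (0.62, adjusted p = 0.0192). Tie1 was at 47.6, 57.6 and 53.0 FPKM in controls and at 63.0, 69.9 and 81.5 FPKM in the libraries labelled ECKO (log2 fold change 0.43, SE 0.12, adjusted p = 0.103). Ptprb was at 28.7, 29.8 and 29.8 FPKM in controls and at 34.1, 35.1 and 35.9 FPKM in the libraries labelled ECKO (0.24, SE 0.087, adjusted p = 0.180).

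Endothelial markers also differed between these libraries. Their sum was between 530.5 and 574.7 FPKM in controls and between 689.6 and 783.0 FPKM in the libraries labelled ECKO, all 8 had positive log2 fold changes with a median of 0.25, and 1 of them, Cldn5, passed (from 84.4 to 180.1 FPKM, adjusted p = 0.0117). The median over all genes tested was -0.0047. After centring each library on the endothelial markers, Tek differed by 0.14 (adjusted p = 0.311), Tie1 by 0.07 (adjusted p = 0.588) and Ptprb by -0.12 (adjusted p = 0.289). This centring shifted the median of all genes to -0.37.

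Angpt1 was at 49.5, 41.1 and 43.5 FPKM in controls and at 40.4, 58.8 and 52.6 FPKM in the libraries labelled ECKO, from 803 to 1464 reads. The lowest and the highest value were both from libraries labelled ECKO, and the log2 fold change of 0.16 had an interval from -0.15 to 0.48 (adjusted p = 0.586). The study also showed Angpt1 in a panel of genes chosen on these libraries, so its direction there is no independent evidence. The megakaryocyte marker Pf4, which encodes platelet factor 4, was at a mean of 120.9 FPKM in controls and 137.2 FPKM in the libraries labelled ECKO, and the 7 markers of this list summed to between 161.9 and 200.4 FPKM, with 1 of 7 (Ppbp) higher in the libraries labelled ECKO. None of the 7 stem and progenitor markers passed, and their sums overlapped between groups (332.1 to 374.7 and 332.3 to 355.1 FPKM). The stromal and pericyte markers, among them Lepr, summed to between 19.1 and 23.4 FPKM. The pan-leukocyte and erythroid markers summed to 3549 to 4235 FPKM in controls and to 3563 to 5164 FPKM in the libraries labelled ECKO, with 0 of 6 called. Osteoblast markers summed to 27.6 to 34.6 FPKM in controls and to 8.58 to 17.4 FPKM in the libraries labelled ECKO, with 2 of 4 tested lower, Col1a1 (from 20.9 to 5.41 FPKM) and Bglap (from 2.07 to 0.418 FPKM). The part of these cells in the Angpt1 level was not tested.

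Angpt2 was at 0, 0.315 and 0.394 FPKM in controls and at 0.406, 0.371 and 0.525 FPKM in the libraries labelled ECKO, which is 0, 8 and 9 against 7, 8 and 11 reads. It was under the filter of a mean of 1 FPKM and had no test among the others. The count of 0 in control replicate 1 allows a level of up to 0.171 FPKM. Taken over the groups, 26 reads against 17 gave a ratio of 1.68 with an exact 95% interval from 0.879 to 3.30, which covers counting error only. A difference was not detectable at this depth.

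The third comparison addressed the loss of the upstream kinase Lats2. Angpt2 rose and Tek fell in the Lats2 cKO libraries, whereas Tie1 and Ptprb stayed within the spread of the libraries and Angpt1 was nearly absent. Of the 4 genes tested, 2 passed an adjusted p-value of 0.05, against 21.8% of all 12453 genes tested. The groups did not overlap for the same 2 of 4, which was so for 68.2% of all genes tested with 2 libraries a group.

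Angpt2 was at 8.06 and 8.15 FPKM in controls and at 172.0 and 478.3 FPKM in Lats2 cKO libraries, or 148 and 179 against 2396 and 8786 reads. The controls lay close together, the mutant libraries were far apart from each other, and each mutant library was at least 21.1 times above each control. On the log2 scale the difference was 4.98 (SE 0.47, adjusted p = 0.00816), with a 95% interval from 3.80 to 6.16. Of all genes tested, only Chga, the chromogranin A gene, had a larger increase in the fit as reported (5.21), and it is named because of its value. Without cKO replicate 2 the log2 fold change of Angpt2 was 4.25 and without cKO replicate 1 it was 5.72.

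Tek was at 215.0 and 213.4 FPKM in controls and at 106.8 and 65.2 FPKM in Lats2 cKO libraries. Both mutant libraries were under both controls, and the replicate with more Angpt2 had less Tek. On the log2 scale the difference was -1.35 (SE 0.24, adjusted p = 0.0217), a 2.49-fold lower mean, and 467 genes had a larger decrease. The call was lost when no filter on low values was used (adjusted p = 0.0539).

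Tie1 was at 291.7 and 299.9 FPKM in controls and at 324.9 and 272.0 FPKM in Lats2 cKO libraries, so that the mutant libraries enclosed the controls. Its log2 fold change was 0.01, with a 95% interval from -0.35 to 0.37 (adjusted p = 0.9753 in limma). Ptprb was at 62.5 and 75.5 FPKM in controls and at 78.3 and 71.7 FPKM in Lats2 cKO libraries, a log2 fold change of 0.12 with an interval from -0.24 to 0.48 (adjusted p = 0.563). Setting the libraries to an equal sum of FPKM turned both signs, to -0.26 for Tie1 and -0.15 for Ptprb, and shifted the median of all genes to -0.23.

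Angpt1 was at 0.283 and 0.711 FPKM in controls and at 0 and 0.0472 FPKM in Lats2 cKO libraries, which is 6 and 18 against 0 and 1 reads. The count of 0 allows up to 0.187 FPKM. Over the groups, 1 read against 24 gave a ratio of 0.052 with an exact 95% interval from 0.00126 to 0.319, which covers counting error only. It did not pass the filter, and without a filter its adjusted p was 0.141 in limma. Megakaryocyte markers summed to 29.9 and 116.6 FPKM in controls and to 12.1 and 9.72 FPKM in cKO libraries, with Gp9, Gp1bb and Treml1 at 0 in both cKO libraries and Pf4 lower (from 37.1 to 9.09 FPKM, adjusted p = 0.0320). The sum of the 6 macrophage markers listed was 705.7 and 611.3 FPKM in controls and 341.7 and 100.8 FPKM in cKO libraries, with 1 of 5 tested lower (Mrc1). The pan-leukocyte and erythroid sum was 2581 and 1853 FPKM against 1086 and 155.3 FPKM, with 1 of 6 lower (Coro1a). Stromal and pericyte markers summed to 48.5 and 61.2 FPKM in controls and to 101.7 and 103.4 FPKM in cKO libraries, with 3 of 6 tested higher (Kitl, Cxcl12 and Rgs5). The endothelial sums overlapped (2503 and 2793 against 2508 and 2429 FPKM), with 1 of 8 markers higher (Pecam1) and 1 lower (Kdr). Of 5 stem and progenitor markers tested, 2 were higher and 2 lower. The part of the other cells in the Angpt1 values was not tested. For Angpt2 and Tek, centring on the endothelial markers left both calls.

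With either Lats2 control left out, 1 control stood against 2 mutant libraries, and 0 genes of the whole table passed 0.05 in limma. Angpt2 then had a log2 fold change of 4.98 or 4.99 (adjusted p = 0.129 and 0.113) and Tek one of -1.34 or -1.35 (adjusted p = 0.169 and 0.166).

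**Figure D2:**
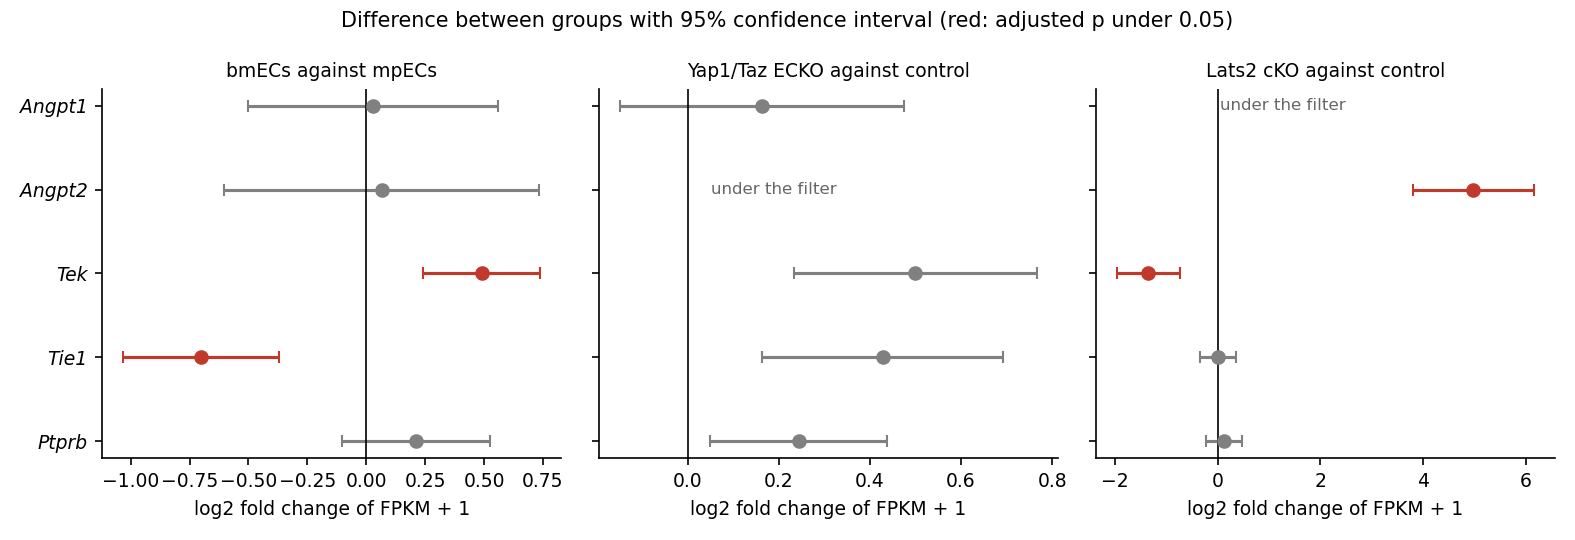
Log2 fold change of FPKM + 1 (points) with its 95% confidence interval (bars) for the 5 genes in each of the 3 comparisons, on separate horizontal scales. Red marks an adjusted p under 0.05, reached by Tek and Tie1 between the regions and by Angpt2 and Tek in the Lats2 comparison, and genes under the filter have no point.

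Because FPKM is per length, pairs of the genes were also set against each other within a library, as differences of log2(FPKM + 1). With 3 libraries against 3 the exact two-sided permutation test cannot go below p = 0.1, and with 2 against 2 not below p = 0.333, so that these values are descriptions. For Tie1 relative to Tek, the mpEC libraries were at -1.78, -1.67 and -1.74 and the bmEC libraries at -2.94, -3.12 and -2.70, a difference of -1.19 at the smallest exact p of 0.1. In other words, Tek exceeded Tie1 by 3.22 to 3.49 times in mpECs and by 6.66 to 8.98 times in bmECs. In the Lats2 controls the ratio was 0.44 and 0.49, with Tie1 above Tek, and in Lats2 cKO libraries it was 1.60 and 2.04. In the Yap1/Taz table the groups overlapped, with -0.25, 0.17 and -0.10 in controls and -0.07, -0.34 and 0.0026 in the libraries labelled ECKO (exact p = 0.8).

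Ptprb relative to Tek differed by -0.28 between bmECs and mpECs without overlap (exact p = 0.1), by -0.26 with overlap between the Yap1/Taz groups (exact p = 0.2) and by 1.47 between the Lats2 groups without overlap. In Lats2 cKO replicate 2, Ptprb was 1.10 times as high as Tek, whereas Tek was the higher of the pair in the other 15 libraries.

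The ratio of Angpt2 to Angpt1 was between 1.23 and 2.94 in all 6 regional libraries, a difference between regions of 0.04 (exact p = 1). It was between -5.66 and -4.88 in the 6 Yap1/Taz libraries (exact p = 0.8). In the Lats2 table it was 2.82 and 2.42 in controls and 7.43 and 8.84 in cKO libraries. These ratios depend on the pseudocount because 1 of the ligands is near 0 in each of the mutant tables. In the regional libraries Angpt1, at 0.629 to 1.92 FPKM, is also near the pseudocount of 1 FPKM. Without a pseudocount, Angpt2 was 3.04 to 16.4 times Angpt1 there.

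**Figure D3:**
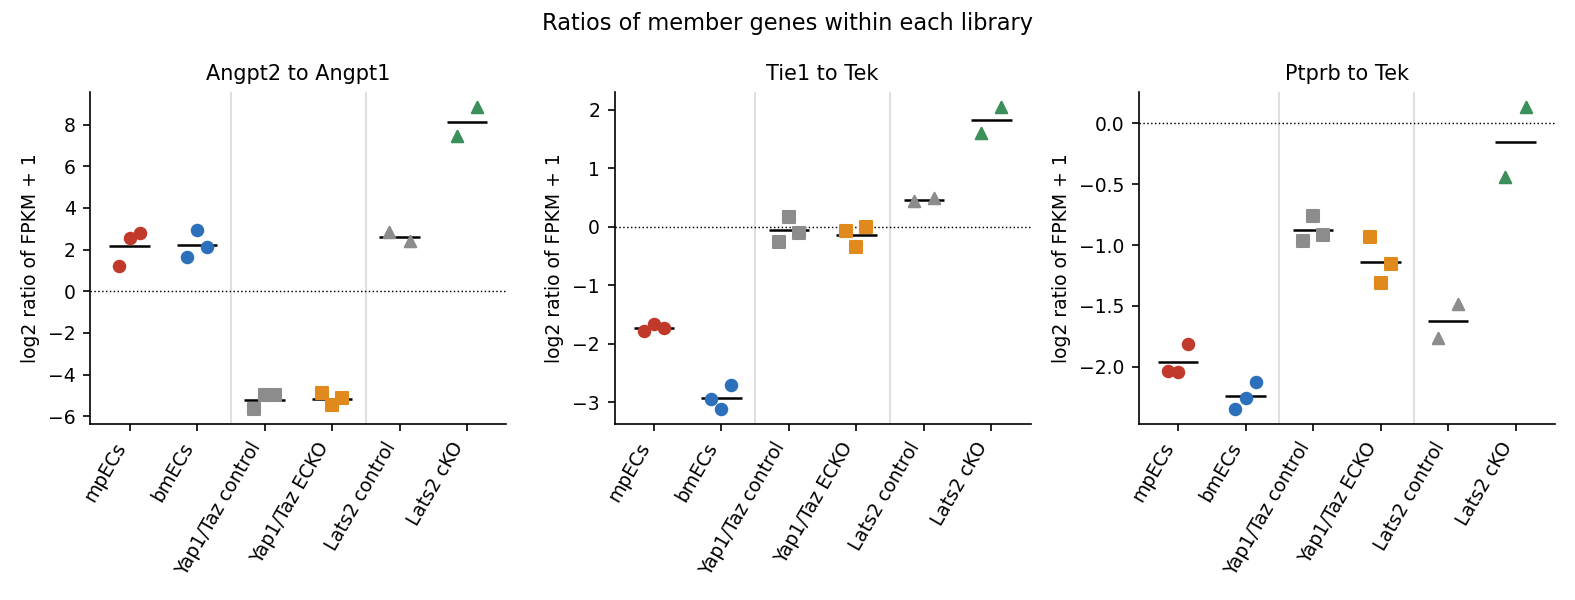
Log2 ratio of FPKM + 1 between pairs of the genes in each of the 16 libraries (points) with group means (black lines), where 0 (dotted) is an equal level. Tie1 to Tek separates bmECs from mpECs and Lats2 cKO from control libraries, in opposite directions, and Angpt2 to Angpt1 is negative only in the Yap1/Taz libraries.

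Of 20 further genes of the Tie pathway, 3, 1 and 5 passed in the 3 comparisons. They were taken from general knowledge, with earlier results of these data known. The list holds adaptors and kinases downstream of Tie2, the alternative ligand Angpt4, the extracellular ligand Svep1, and the integrins that bind angiopoietins. In bmECs against mpECs, 15 were tested, 0 were higher and 3 lower, with a median log2 fold change of -0.12 against -0.00068 over all genes, of which 23.5% passed. The lower ones were the nitric oxide synthase gene Nos3 (from 5.72 to 1.88 FPKM, a log2 difference of -1.23 at an adjusted p = 0.00357), Itga5 (from 23.5 to 13.8 FPKM, -0.72, adjusted p = 0.0209) and Itgb1 (from 189.2 to 121.7 FPKM, -0.63, adjusted p = 0.00256). Itga5 and Itgb1 encode the subunits of the fibronectin receptor.

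In the Yap1/Taz comparison 16 were tested and 1 passed (1.31% of all genes did), Grb2, an adaptor of receptor tyrosine kinases, which was lower in the libraries labelled ECKO (from 22.8 to 13.1 FPKM, a log2 difference of -0.75 at an adjusted p = 0.0347). The median of the list was -0.05. Grb2 lost its call without control replicate 2, control replicate 3, or the libraries labelled ECKO replicate 2 or 3, and 0 of the list passed with no filter, with a replicate block or with no mean-variance trend. After endothelial marker centring 10 were lower.

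In the Lats2 comparison 14 were tested, and 3 were higher and 2 lower in cKO libraries, with a median of 0.19, where 21.8% of all genes passed. Itgb1 rose from 255.4 to 389.3 FPKM (a log2 difference of 0.61 at an adjusted p = 0.0328), Nos3 from 54.7 to 83.2 FPKM (0.61, adjusted p = 0.0408) and Ptpn11, the gene of the phosphatase Shp2, from 9.53 to 14.99 FPKM (0.60, adjusted p = 0.0452). Pik3r1, a regulatory subunit of PI3-kinase, fell from 10.8 to 6.00 FPKM (-0.76, adjusted p = 0.0199), and Tnip2, a partner of Tie2 that restrains NF-kappaB, from 12.4 to 7.49 FPKM (-0.66, adjusted p = 0.0490). These calls depended on the fit. With no filter 0 of the list were higher and 1 lower, with no mean-variance trend 0 and 1, and after quantile normalization 1 and 2. The calls were lost without either control, as were those of all genes, and also without cKO replicate 2. The median of the list was 0.21 without cKO replicate 1 and 0.12 without cKO replicate 2. With an equal sum of FPKM 0 were higher and 3 lower.

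Foxo1, the transcription factor that Akt holds in the cytoplasm when Tie2 signals, did not pass in any comparison (adjusted p = 0.957, 0.856 and 0.257 in limma). Angpt2 is a known FoxO1 target in ECs, so 12 other FoxO targets were examined. In Lats2 cKO libraries 11 were tested, with 3 positive and 8 negative log2 fold changes, of which 0 and 4 passed. The median log2 fold change was -0.55 against -0.0033 over all genes, of which 21.8% passed in either direction. Txnip, an inhibitor of thioredoxin, fell from 557.0 to 199.8 FPKM (-1.47, adjusted p = 0.00986), the stress gene Sesn1 from 28.2 to 10.1 FPKM (-1.42, adjusted p = 0.0193), Cited2 from 44.9 to 21.4 FPKM (-1.03, adjusted p = 0.0224) and Klhl24 from 15.5 to 8.62 FPKM (-0.79, adjusted p = 0.0356). Angpt2 was higher in the same libraries, and a part of FoxO1 in these changes was not tested. With no filter 2 genes of the list were lower, and with no mean-variance trend 3. The calls of the list were lost without either control, as were those of all genes. Fewer genes of the list passed without cKO replicate 2, where the median of the list was -0.28.

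Between the regions, 10 FoxO targets were tested, with 2 higher in bmECs (Cited2, log2 fold change 1.63, adjusted p = 0.00109, and Txnip, 1.06, adjusted p = 0.00138) and 2 lower (Sesn3, -0.96, adjusted p = 0.00888, and Sesn1, -0.35, adjusted p = 0.0182). The median was 0.04, and 23.5% of all genes passed between the regions. Without mpEC replicate 3 or bmEC replicate 1, 2 were higher and 1 lower, and without bmEC replicate 3, 3 were higher and 1 lower. In the Yap1/Taz comparison 0 of 11 passed in limma, with a median of 0.17, and 1 did in limma-voom. After endothelial marker centring 3 were lower and the median was -0.19, where that of all genes was -0.37.

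**Figure D4:**
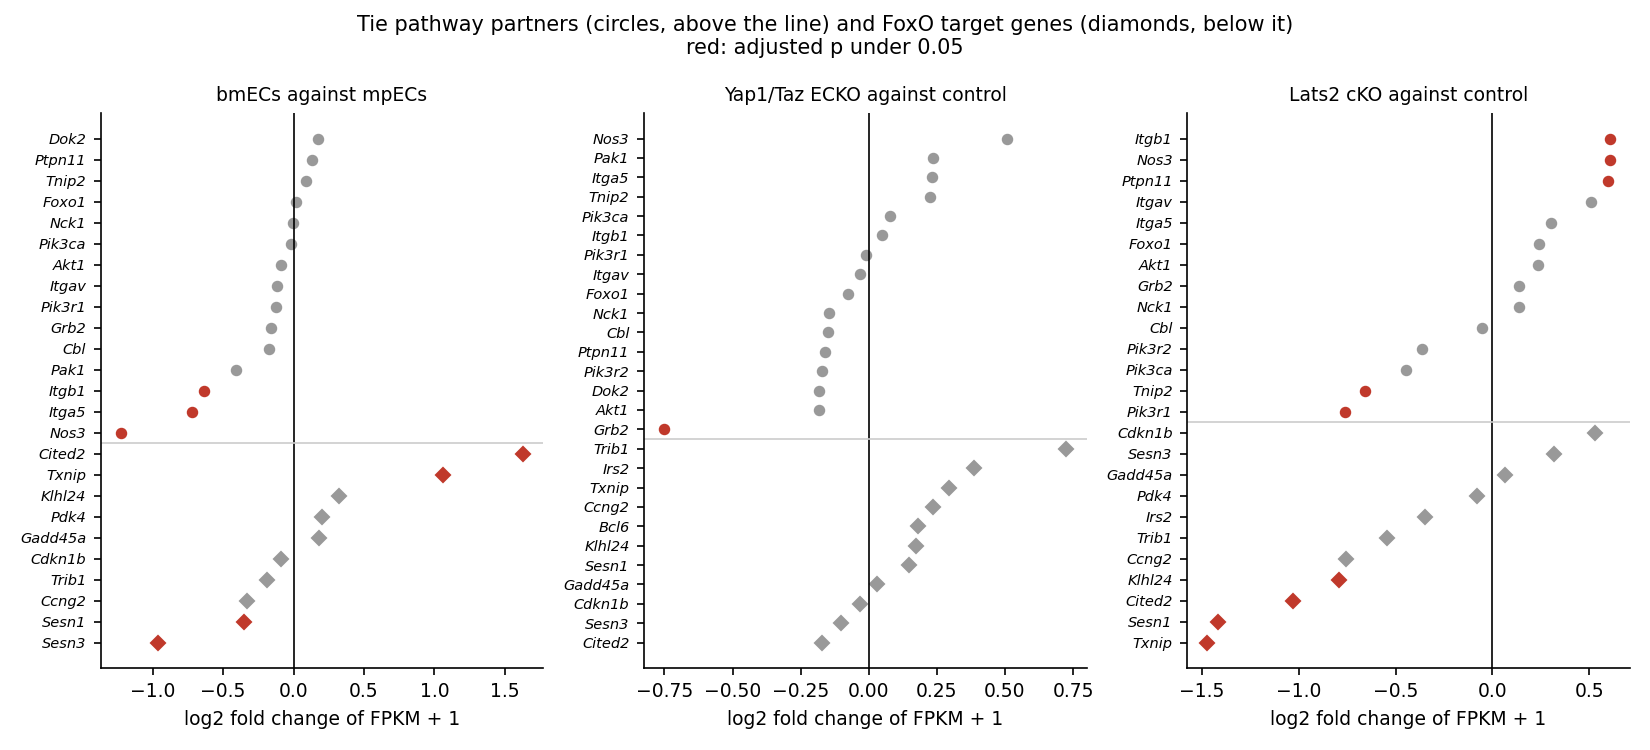
Log2 fold change of FPKM + 1 of the tested Tie pathway genes (circles, above the line) and FoxO target genes (diamonds, below the line) in the 3 comparisons, each with its own horizontal scale, with red for an adjusted p under 0.05. The 4 red FoxO targets of the Lats2 comparison are all under 0.

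Angpt2 is also used as a marker of tip cells, the leading cells of vessel sprouts, and 8 other tip cell genes were set beside it. The study chose tip cell genes, Angpt2 among them, on the Lats2 libraries, so their direction there is no independent evidence. In Lats2 cKO libraries 7 of 8 were higher and 0 lower, with a median log2 fold change of 2.12, where 21.8% of all genes passed. Esm1 rose from 7.10 to 260.1 FPKM (4.79, adjusted p = 0.0104), Apln from 35.8 to 769.6 FPKM (4.34, adjusted p = 0.00684), Kcne3 by a log2 difference of 2.56 (adjusted p = 0.00808) and Cxcr4 by 2.27 (adjusted p = 0.0197). The calls of this list too were lost without either control. In bmECs 7 of 8 were lower than in mpECs and 0 higher, with a median of -1.62, where 23.5% of all genes passed. The largest decreases in limma were those of Kcne3 (-3.67, adjusted p = 2.86e-05), Apln (-3.39, adjusted p = 1.22e-05), Nid2 (-2.95, adjusted p = 9.29e-05) and Esm1 (-1.66, adjusted p = 0.000311). Angpt2 differed by 0.07 in that comparison. In the Yap1/Taz comparison 0 of 7 passed in limma, 1 did in limma-voom, and the median was 0.43. After endothelial marker centring 1 was lower and the median was 0.06, where that of all genes was -0.37.

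Likeness to other genes was measured as Pearson's r of log2(FPKM + 1) over the 16 libraries, after each gene's mean within its own table was subtracted, among genes averaging 5 FPKM or more in each of the 3 tables. Libraries within a table may share cell mixtures and a batch, which the labels do not give, so the values are descriptions. Tie1 was most like Plxnd1, the semaphorin receptor gene of ECs (r = 0.94), Pcbp3 (0.92) and Flt1, the gene of VEGF receptor 1 (0.91), and without the Lats2 libraries these were 0.98, 0.93 and 0.94 over 12 libraries. Tek was most like Il13ra2 (0.97), Nbr1 (0.97) and Gatm (0.97), at 0.93, 0.92 and 0.89 without the Lats2 libraries. Tek and Tie1 themselves were not alike (r = -0.00031).

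Ptprb was most like Vat1 (0.87), the scavenger receptor gene Scarb1 (0.86) and Chst7 (0.85). Its r with Tek was 0.29, and 0.80 over the 12 libraries of the other tables. Angpt2 was most like the annexin gene Anxa6 (0.97), the myosin light chain gene Myl12b (0.95) and Lrrfip1 (0.95), but these rested on the Lats2 libraries, without which they were 0.31, 0.12 and -0.09. The r of Angpt2 with Tek was -0.76, and 0.42 without the Lats2 libraries. Angpt1 was most like Dhx15 (0.80), Psme4 (0.80) and Ciao1 (0.79).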

How the data were processed

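The upstream tools named in the submitters' processing notes are TopHat, HTSeq 0.6.1 and DESeq2, with GRCm38 (mm10) as the build. The authors deposited FPKM values, and the step from counts to these and the strand setting are not given in the sources used here. No reads or counts were used directly, and each library was kept as 1 replicate. The members and gene lists were chosen with earlier results of these data known.

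In R 4.3.3, limma 3.58.1 was fitted to log2(FPKM + 1), which understates the change of low genes, with 1 term for group and a mean-variance trend, over genes averaging 1 FPKM or more. Tests were two-sided, adjusted by the Benjamini-Hochberg method over all genes tested, and called at 0.05. The DESeq2 step of the authors' own analysis was not used. Reads were recovered from steps of the FPKM values. Of values up to 20 reads, 62.3% to 70.1% per library lay within 0.02 of a whole read, and for the 5 genes every value did within 0.05 at 1 length per gene. Gene positions came from GENCODE M21 and 21375 of 21603 identifiers (98.9%) had a symbol. The fits were tested on simulated data. Named genes were the members, the targeted genes, up to 4 called genes per list with the largest change, the top marker of a list, and 3 most alike genes per member. Outside this rule, Chga, Ptpn11, Foxo1 and markers at 0 were named after their values were seen. Alternatives were another pseudocount, filter, scaling, threshold and variance model, limma-voom, a replicate block and leaving out each library. Python 3.11.15 with scipy gave the exact tests.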

Additional observations from a re-analysis of the deposited data

How the results depend on the processing

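Counts of the 5 genes called changed as follows. Between the regions 2 were called, and 1 after quantile normalization, with an equal sum of FPKM, after endothelial marker centring, in limma-voom and at the study's threshold, and 1 to 2 with a library left out. For Yap1/Taz the count was 0, with 1 in limma-voom and 0 to 1 with a library left out. For Lats2 it was 2, with 1 under no filter, 1 at the study's threshold and 0 to 2 with a library left out, where a lone control is assumed to vary like the other group. The difference in the Angpt2 to Angpt1 ratio with a pseudocount of 0.1 FPKM was 0.79 for Yap1/Taz and 7.33 for Lats2.

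Some uncalled differences turned sign. Between the regions Angpt1 was at -0.048 with an equal sum, -0.13 after centring and -0.14 in limma-voom (-0.19 to 0.24 with a library left out), and Angpt2 at -0.071, -0.10 and -0.074 (-0.21 to 0.25). For Yap1/Taz, centring gave -0.20 for Angpt1 and -0.12 for Ptprb, and Yap1, at -0.41 after centring, ranged from -0.14 to 0.077 with a library left out. For Lats2, quantile normalization, an equal sum and limma-voom gave Tie1 -0.24, -0.26 and -0.13 (-0.12 to 0.13) and Ptprb -0.0088, -0.15 and -0.010 (-0.012 to 0.26). The cause was not tested.

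Over all genes, the Yap1/Taz count of 148 was 1 under no filter, 5352 after centring, 17 without the trend, 358 in limma-voom and 1 to 293 with a library left out, and the Lats2 count of 2711 was 1389 under no filter and 0 to 2701 with a library left out. At the threshold of the study's methods, set on the limma fits, the 3 counts were 1335, 1 and 257. The share higher among the calls was 55.2% between the regions and 32.0% with an equal sum, 32.9% after centring and 27.1% in limma-voom. For Lats2 it was 54.1%, 31.1% with an equal sum and 38.5% in limma-voom, and for Yap1/Taz 67.6%, and 1.48% after centring. Scaling moved the median of all genes by up to -0.19 between the regions.

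Deviations of same-numbered libraries had an r of 0.31, 0.09 and 0.10 between the regions, where unlike numbers ranged from -0.21 to 0.12. For Yap1/Taz these r were -0.18, -0.12 and -0.15, and for Lats2 0.07. Whether the numbers pair the regional libraries is not settled by these values. With a replicate block 2, 0 and 2 of the 5 genes were called, and 3072, 45 and 2655 of all genes. Low read numbers of the gene limit Angpt2 in the Yap1/Taz and Angpt1 in the Lats2 libraries.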
